A study of Mus musculus with 12 samples.

Results

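The genes described here are 10 members of the epidermal growth factor (EGF) family, found by gene name among the 21881 genes of the deposited table. There are 7 ligands, Areg, Ereg, Epgn, Btc, Tgfa, Hbegf and Nrg1, and 3 receptors, Egfr, Erbb2 and Erbb3. They were measured by sequencing of polyadenylated RNA in immortalized lines, each grown from a single cell, of C57BL/6 mouse bone marrow mesenchymal stem cells, labelled as fibroblasts. KO_let-7g libraries came from Dicer -/- cells given a synthetic let-7g duplex, KO_siNr6a1 libraries from Dicer -/- cells given an siRNA against Nr6a1, KO_siCtrl libraries from Dicer -/- cells given a nontargeting control siRNA, and WT_siCtrl libraries from Dicer f/f cells given that control siRNA. Each agent was used at 20 nM for 48 h with the reagent HiPerfect, and each of the 4 groups had 3 libraries, numbered 0, 1 and 2. The sources used here do not give the number of lines per genotype, so a difference between Dicer -/- and Dicer f/f cells and a difference between single-cell lines cannot be told apart.

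Ligands of the EGF family are made as membrane proteins, are cut from the cell surface by metalloproteases and bind receptor tyrosine kinases on the same or nearby cells. A bound receptor pairs with another receptor of the family and signals through adaptors to Ras, the kinases Raf, Mek and Erk, and others. Areg, Epgn and Tgfa bind Egfr. Ereg, Btc and Hbegf bind Egfr and Erbb4, and neuregulins such as Nrg1 bind Erbb3 and Erbb4. Erbb2 has no known ligand of its own and acts as a partner, and Erbb3 has little kinase activity and depends on its partner. Dicer is the nuclease that releases mature microRNAs from their precursors, let-7 is a microRNA family of differentiated cells, and Nr6a1 is an orphan nuclear receptor that represses transcription.

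Levels are in FPKM, a measure of sequenced fragments scaled both to transcript length and to library size, so levels of different genes can be set side by side. Read counts are unknown. Relative depth, set to 1 in KO_siCtrl replicate 0, was 1.34 to 1.82 in KO_let-7g, 1.13 to 1.57 in KO_siNr6a1, 1 to 1.31 in KO_siCtrl and 1.11 to 1.29 in WT_siCtrl. Nr6a1 stood at 3.39 to 5.38 FPKM in KO_let-7g and at 3.31 to 4.30 FPKM in KO_siNr6a1, against 10.2 to 12.6 FPKM in KO_siCtrl and 0.945 to 1.25 FPKM in WT_siCtrl. Dicer1 stood at 2.37 to 4.06 FPKM over the 9 Dicer -/- libraries, against 5.58 to 8.24 FPKM in WT_siCtrl, a level that also counts any part of the transcript that the deletion leaves. Of 10 mesenchymal stem cell markers 9 passed the filter on low values, and Thy1 was under 0.1 FPKM in every library. Their sum was 786 to 885 FPKM in KO_let-7g, 996 to 1054 FPKM in KO_siNr6a1, 835 to 909 FPKM in KO_siCtrl and 1308 to 1526 FPKM in WT_siCtrl. Without Col1a1, a collagen gene, it was 623 to 684, 653 to 695, 604 to 667 and 625 to 715 FPKM in these groups, which overlap. The sum of 8 epithelial markers was 0.757 to 1.34, 0.457 to 0.664, 1.82 to 3.19 and 1.88 to 2.87 FPKM in these groups, with Krt5 and Cldn4 under 0.1 FPKM throughout. The sum of 6 blood cell markers was 4.34 to 6.88, 1.61 to 1.77, 1.32 to 2.33 and 1.13 to 1.80 FPKM, nearly all of it Cd68, and Ptprc, Emr1 and Itgam were under 0.1 FPKM throughout. Within these sums single markers moved in opposite directions. In KO_siCtrl against WT_siCtrl, mean FPKM was 48.8 against 17.8 for Ly6a and 87.6 against 47.1 for Cd44. It was 6.20 against 12.6 for Pdgfra and 39.9 against 53.8 for Eng. Itgb1, the largest part of the stem cell marker sum without Col1a1, was at 333 against 418 FPKM. Among the epithelial markers, Krt8 was at 1.17 against 0.106 FPKM and Krt19 at 1.12 against 1.85 FPKM. The part of these markers in the results below was not tested. In bulk RNA, fewer cells that express a gene and less RNA of it per cell cannot be told apart.

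A gene was called where limma's moderated two-sided test on log2(FPKM + 1) over all 12 libraries gave a Benjamini-Hochberg adjusted p under 0.05 across 11801 genes. The 11801 genes had at least 1 FPKM in at least 3 libraries. Of the 10 family members 7 passed that filter, and Epgn, Tgfa and Erbb3 did not. Every fold change below is a difference of mean log2(FPKM + 1), which makes changes of low genes look smaller. As all groups have 3 libraries and share 1 estimate of the spread, a gene has the same standard error (SE) in each comparison. KO_let-7g and KO_siNr6a1 were both compared with the same KO_siCtrl libraries, and KO_siCtrl was itself compared with WT_siCtrl, so these comparisons are not independent.

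Sequences are shown where the design bears on them: the added microRNA, the family's own matches to it, and the promoter of the ligand that the 2 treatments moved in opposite directions. The mature let-7g strand is on chromosome 9 (chr9:106178846-106178867, + strand, RefSeq GRCm38.p6), with its seed, bases 2 to 8, in capitals. In the longest coding transcript of each member in GENCODE (GRCm38), Ereg has 1 match to the seed in its 3′ UTR with an A opposite base 1 (chr5:91092750-91092779, + strand). Egfr has 1 shorter match with an A opposite base 1 (chr11:16917519-16917547, + strand). The matching letters are in capitals.
let-7g: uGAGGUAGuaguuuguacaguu
Ereg site: tcccatcaagaCTACCTCAtagtccagtag
Egfr site: attgttgtcatTACCTCAcagcagcagaa

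The Ereg letters CTACCTCA occur in the 3′ UTR of 3.57% of 10222 tested genes with a 3′ UTR, and the Egfr letters TACCTCA in that of 1122 of these genes. The other 8 members have neither match, and TACCTC, which 25.9% of these genes have, occurs 4 times in Egfr and 1 time each in Ereg, Epgn and Tgfa, the longer matches included. A match is a description of letters and not of binding.

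Promoters of 6 members, Areg, Epgn, Btc, Tgfa, Egfr and Erbb2, matched the RefSeq table. Both strands of the 300 bases around each start were searched for TGACGTCA (the CRE, the cyclic AMP response element), TGANTCA (AP-1), TCAAGGTCA (an extended nuclear receptor site known to bind Nr6a1) and TATAAA (the TATA box). These occur in 1.79%, 7.81%, 0.423% and 13.6% of 32851 promoters of the same length. Areg has TGACGTCA starting at -61 and TATAAA at -31, counted back from the start of transcription. Epgn has TATAAA at -86, and the other 4 have none of these letters in the window. The 250 bases before the start of Areg (chr5:91139349-91139598, + strand, GRCm38.p6) follow, with both matches in capitals.
Areg: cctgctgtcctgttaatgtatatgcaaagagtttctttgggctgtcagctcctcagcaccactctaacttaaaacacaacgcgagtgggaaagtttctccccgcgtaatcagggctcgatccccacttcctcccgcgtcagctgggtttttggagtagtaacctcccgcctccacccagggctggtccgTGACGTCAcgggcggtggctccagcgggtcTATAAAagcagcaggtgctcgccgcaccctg

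Dicer -/- cells with control siRNA had more mRNA of the Egfr ligands Areg, Ereg and Hbegf and of Egfr than Dicer f/f cells, and less Nrg1. Of the 7 tested members 4 were higher, 1 was lower and 2 were not called in KO_siCtrl against WT_siCtrl, where 54.3% of all tested genes were called, 29.1% higher and 25.2% lower. The median log2 fold change was 0.93 over the 7 members and 0.04 over all tested genes, as a description only. Areg and Ereg passed the filter only through Dicer -/- libraries, as they were at 0.173 to 0.403 and 0.763 to 1.03 FPKM in WT_siCtrl. The members were also chosen with earlier results of these data known. With let-7g added to Dicer -/- cells, Areg, Btc and Nrg1 were higher and Ereg, Hbegf and Erbb2 lower than in KO_siCtrl, and Egfr was not called. In that comparison 45.6% of all tested genes were called, 27.5% higher and 18.2% lower, and the medians were -0.12 over the members and 0.08 over all. With siRNA against Nr6a1, Nrg1 and Erbb2 were higher and Areg, Ereg and Hbegf lower than in KO_siCtrl, and Btc and Egfr were not called, where 29.4% of all tested genes were called, 13.2% higher and 16.3% lower. That is 3474 genes, and 5248 with the replicate number as a block. The medians there were -0.06 over the members and -0.06 over all tested genes.

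Between the treatments, in KO_let-7g against KO_siNr6a1, Areg, Btc and Nrg1 were higher and Egfr and Erbb2 lower, and 40.9% of all tested genes were called, 27.6% higher and 13.3% lower. Ereg and Hbegf, which fell under both treatments, were not called between them. Against WT_siCtrl, 3 of 7 members were higher and 1 lower in KO_let-7g, with 58.2% of all tested genes called, 35.3% higher and 22.8% lower. In KO_siNr6a1 4 of 7 were higher than WT_siCtrl and 1 lower, with 54.3% of all tested genes called, 27% higher and 27.4% lower. Without the filter, the libraries of all 10 members can be set side by side: those of KO_siCtrl and WT_siCtrl did not overlap for 7 members, as for 41.3% of the 19916 genes above 0 in any library. KO_let-7g and KO_siCtrl did not overlap for 8 members (38.6% of genes), and KO_siNr6a1 and KO_siCtrl for 7 (31.5% of genes). KO_let-7g and KO_siNr6a1 did not overlap for 7 members (39.2% of genes). For 7 members KO_let-7g and WT_siCtrl did not overlap (44.2% of genes), nor did KO_siNr6a1 and WT_siCtrl for 8 (43.1% of genes).

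**Figure D1:**
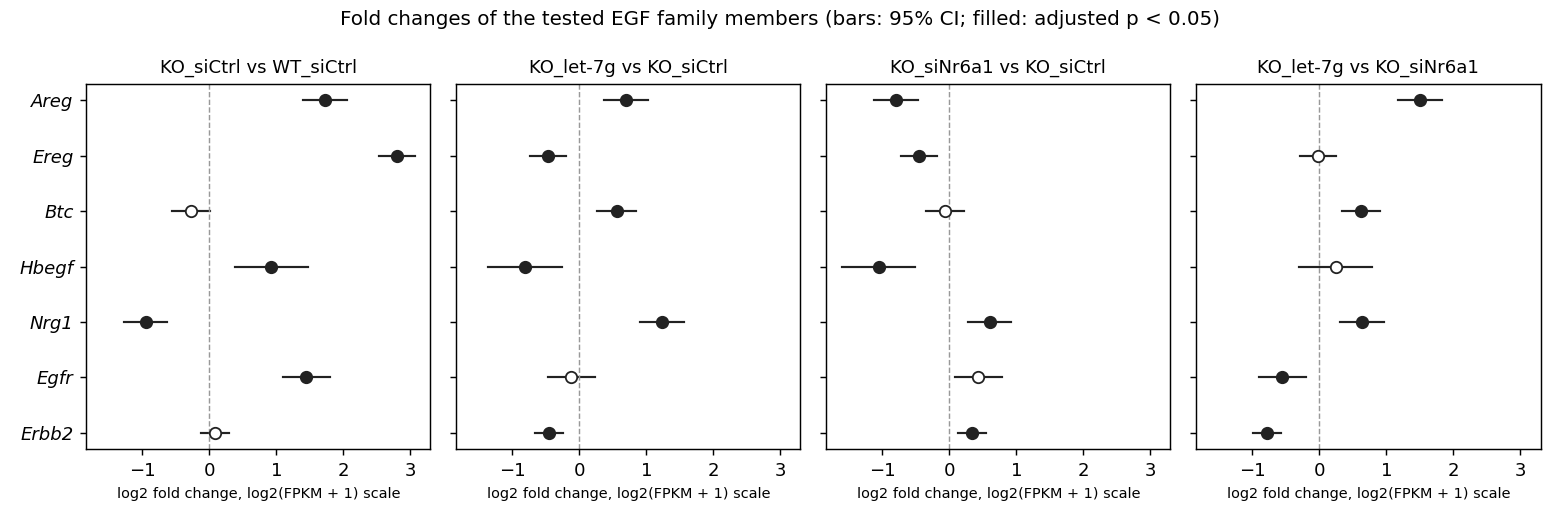
Log2 fold change on the log2(FPKM + 1) scale (x axis) of the 7 tested members (rows) in 4 comparisons (panels), with bars for the 95% confidence interval and filled points for an adjusted p under 0.05. Areg is to the right of 0 in KO_let-7g against KO_siCtrl (0.70) and to the left in KO_siNr6a1 against KO_siCtrl (-0.80), while Hbegf is to the left in both (-0.81 and -1.05).

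Areg, Ereg, Epgn and Btc are neighbours on mouse chromosome 5, 4 protein-coding genes in a row over 376 kb in GENCODE (GRCm38), and their levels moved in different ways. Epgn lies at 91027464 to 91035215, Ereg at 91074622 to 91093646 and Areg at 91139599 to 91148432, all on the + strand, and Btc at 91357261 to 91402994 on the - strand.

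Areg encodes amphiregulin. It stood at 5.68, 4.50 and 7.48 FPKM in the KO_let-7g libraries and at 1.64, 1.37 and 1.21 FPKM in the KO_siNr6a1 libraries. KO_siCtrl libraries had 2.88, 3.25 and 3.42 FPKM, and WT_siCtrl libraries had 0.403, 0.173 and 0.218 FPKM. No groups overlapped, and the order was KO_let-7g, KO_siCtrl, KO_siNr6a1 and WT_siCtrl, each step past the test. The log2 fold change of KO_siCtrl against WT_siCtrl was 1.73 (SE 0.15, limma adjusted p = 3.19e-06), with mean levels 12.04 times apart. That ratio is over a WT_siCtrl mean of 0.264 FPKM, a level that rests on few reads. Treatment moved Areg both ways from KO_siCtrl: KO_let-7g differed by 0.70 (adjusted p = 0.00291), while KO_siNr6a1 differed by -0.80 (adjusted p = 0.00258). Directly compared, KO_let-7g was higher than KO_siNr6a1 by 1.496 (limma adjusted p = 4.10e-05), in 3 of 3 libraries. Against WT_siCtrl, the differences were 2.43 in KO_let-7g and 0.93 in KO_siNr6a1 (adjusted p = 2.67e-07 and 0.00031). With a pseudocount of 0.1 in place of 1, the differences from WT_siCtrl were 4.06 for KO_let-7g, 2.09 for KO_siNr6a1 and 3.22 for KO_siCtrl.

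Ereg encodes epiregulin and carries the let-7 match printed above. KO_let-7g libraries had 8.53, 7.23 and 9.52 FPKM, and KO_siNr6a1 libraries had 8.61, 7.47 and 9.53 FPKM. KO_siCtrl libraries had 11.2, 11.4 and 13.3 FPKM, and WT_siCtrl libraries had 1.03, 0.789 and 0.763 FPKM. Every treated library was below every KO_siCtrl library and above every WT_siCtrl library, and the treated groups overlapped each other. Against KO_siCtrl, Ereg fell by 0.46 in KO_let-7g on the log2 scale (SE 0.12, limma adjusted p = 0.00935). It fell by 0.45 in KO_siNr6a1 (adjusted p = 0.0185). The second call was lost without KO_siNr6a1 replicate 1 (-0.36, adjusted p = 0.0752), without KO_siCtrl replicate 2 (-0.37, adjusted p = 0.0695) and under quantile scaling (-0.39, adjusted p = 0.0538). KO_let-7g minus KO_siNr6a1 was -0.02, with a 95% confidence interval of -0.29 to 0.25 (limma adjusted p = 0.922). Both treated groups stayed far above WT_siCtrl, by 2.34 in KO_let-7g and 2.35 in KO_siNr6a1 (adjusted p = 8.15e-08 and 7.81e-08). An antisense gene, Gm19610, overlaps Ereg, and the sources used here do not say whether reads were counted by strand.

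Epgn encodes epigen and had the lowest mean of the 7 ligands in each Dicer -/- group, while Tgfa had the lowest in WT_siCtrl. The 3 libraries of KO_let-7g had 0.0612, 0.0276 and 0.104 FPKM, and those of KO_siNr6a1 had 0.428, 0.293 and 0.285 FPKM. Levels were 0.297, 0.170 and 0.150 FPKM in KO_siCtrl and 0.234, 0.0574 and 0.318 FPKM in WT_siCtrl. KO_let-7g lay below KO_siNr6a1 and KO_siCtrl without overlap, and WT_siCtrl spread across the others. With no filter, over 19916 genes, KO_let-7g minus KO_siNr6a1 was -0.33 (SE 0.08, limma adjusted p = 0.0164), and KO_let-7g minus KO_siCtrl was -0.18 (adjusted p = 0.144). All of these levels are far below 1 FPKM, where few reads stand behind a value.

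Btc encodes betacellulin. It stood at 1.65, 2.40 and 1.63 FPKM in KO_let-7g and at 0.859, 1.001 and 0.756 FPKM in KO_siNr6a1. KO_siCtrl libraries had 0.928, 1.25 and 0.717 FPKM, and WT_siCtrl libraries had 1.24, 1.48 and 1.34 FPKM. KO_let-7g was above the other 3 groups without overlap, KO_siNr6a1 and KO_siCtrl overlapped, and 1 KO_siCtrl library reached into the WT_siCtrl range. Btc rose by 0.56 in KO_let-7g against KO_siCtrl (SE 0.13, limma adjusted p = 0.00485) and was 0.62 higher in KO_let-7g than in KO_siNr6a1 (adjusted p = 0.00321). These 2 differences were 0.91 and 1.02 with a pseudocount of 0.1, and 0.37 and 0.38 under quantile scaling, with adjusted p under the threshold in each. KO_siNr6a1 minus KO_siCtrl was -0.06, with a 95% confidence interval of -0.35 to 0.22 (limma adjusted p = 0.757). KO_siCtrl minus WT_siCtrl was -0.27 (limma adjusted p = 0.103, and 0.0252 with the replicate number as a block). That difference was also past the threshold without KO_siCtrl replicate 1 (-0.37, adjusted p = 0.0408). KO_let-7g minus WT_siCtrl was 0.29 (limma adjusted p = 0.0769, and 0.0169 with the replicate block). KO_siNr6a1 minus WT_siCtrl was -0.33 at an adjusted p of 0.0498, and this call was lost in 11 of 22 other settings, with adjusted p up to 0.381.

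Among the ligands elsewhere in the genome, Tgfa, on chromosome 6, encodes transforming growth factor alpha. Tgfa was at 0.411, 0.588 and 0.272 FPKM in KO_let-7g, at 0.369, 0.425 and 0.418 FPKM in KO_siNr6a1 and at 0.486, 0.672 and 0.474 FPKM in KO_siCtrl, against 0.0499, 0.0214 and 0.0863 FPKM in WT_siCtrl. All 9 Dicer -/- libraries were above all WT_siCtrl libraries, and the mean in KO_siCtrl was 10.4 times that in WT_siCtrl. That WT_siCtrl mean, 0.0525 FPKM, rests on few reads. With no filter, the log2 difference from WT_siCtrl was 0.43 in KO_let-7g, 0.42 in KO_siNr6a1 and 0.55 in KO_siCtrl (SE 0.08, limma adjusted p = 0.00145, 0.00189 and 0.000342). Against KO_siCtrl, KO_let-7g differed by -0.12 (adjusted p = 0.306) and KO_siNr6a1 by -0.13 (adjusted p = 0.302), and neither was called.

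Hbegf, on chromosome 18, encodes a heparin-binding ligand and had the highest mean level of the 7 ligands in each group. Its libraries stood clear of the next ligand, Ereg, only in KO_siCtrl, and overlapped those of Nrg1 in KO_let-7g, Ereg in KO_siNr6a1 and Nrg1 in WT_siCtrl. KO_let-7g libraries had 11.4, 8.65 and 12.8 FPKM, and KO_siNr6a1 libraries had 9.10, 8.11 and 9.79 FPKM. KO_siCtrl libraries had 19.0, 18.3 and 21.9 FPKM, and WT_siCtrl libraries had 16.8, 7.46 and 7.54 FPKM. KO_siCtrl was above each of the other 3 groups without overlap, and WT_siCtrl replicate 0 stood apart from the other WT_siCtrl libraries. The difference of KO_siCtrl from WT_siCtrl was 0.93 (SE 0.25, limma adjusted p = 0.00838), and 1.28 without WT_siCtrl replicate 0 (adjusted p = 5.36e-05). Against KO_siCtrl, Hbegf fell by 0.81 in KO_let-7g (limma adjusted p = 0.0207). It fell by 1.05 in KO_siNr6a1 (adjusted p = 0.00909). The KO_let-7g call did not hold with KO_let-7g replicate 1 left out (-0.66, adjusted p = 0.0803) or with KO_siCtrl replicate 2 left out (-0.74, adjusted p = 0.0649). KO_let-7g minus KO_siNr6a1 was 0.24, with a 95% confidence interval of -0.30 to 0.79 (limma adjusted p = 0.464). The differences from WT_siCtrl were 0.12 in KO_let-7g and -0.12 in KO_siNr6a1 (adjusted p = 0.706 and 0.699). Without WT_siCtrl replicate 0 they were 0.48 (adjusted p = 0.0194) and 0.23 (adjusted p = 0.212), so the direction of the second turned.

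Nrg1, on chromosome 8, encodes neuregulin 1, the member whose receptors are Erbb3 and Erbb4. It stood at 11.03, 7.93 and 9.93 FPKM in KO_let-7g and at 6.22, 5.89 and 5.30 FPKM in KO_siNr6a1. The KO_siCtrl libraries had 3.78, 3.97 and 2.78 FPKM, and the WT_siCtrl libraries had 8.98, 7.48 and 6.61 FPKM. KO_siCtrl was below all other groups, KO_siNr6a1 came next, and KO_let-7g and WT_siCtrl overlapped at the top. Nrg1 fell by 0.95 in KO_siCtrl against WT_siCtrl (SE 0.15, limma adjusted p = 0.000253), opposite to the called Egfr ligands Areg, Ereg and Hbegf. Against KO_siCtrl, it rose by 1.24 in KO_let-7g (adjusted p = 6.58e-05). It rose by 0.60 in KO_siNr6a1 (adjusted p = 0.0111), and KO_let-7g was 0.64 above KO_siNr6a1 (limma adjusted p = 0.00577). Against WT_siCtrl, KO_let-7g differed by 0.29 (limma adjusted p = 0.116, and 0.0497 with the replicate block) and KO_siNr6a1 by -0.35 (adjusted p = 0.0667). The first of these was past the threshold without KO_let-7g replicate 1 (0.41, adjusted p = 0.0437), and the second without WT_siCtrl replicate 2 (-0.44, adjusted p = 0.0415) or KO_siCtrl replicate 2 (-0.35, adjusted p = 0.0484), and with library weights (-0.41, adjusted p = 0.00779).

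**Figure D2:**
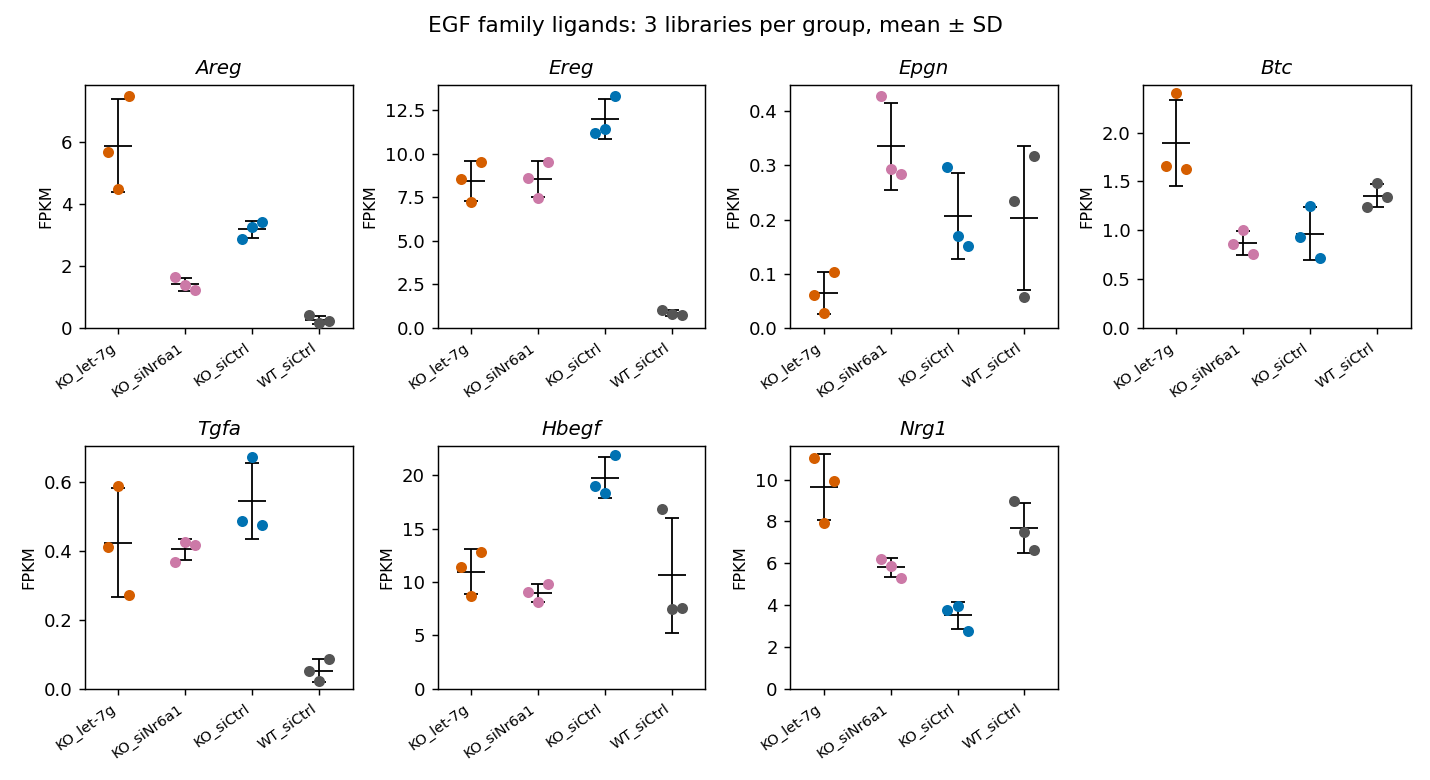
FPKM (y axis, linear from 0, a scale of its own per panel) of the 7 ligands in the 4 groups (x axis), with 1 point per library and the mean ± SD. WT_siCtrl sits lowest for Areg, Ereg and Tgfa, KO_siCtrl lowest for Nrg1 and highest for Hbegf, and KO_let-7g highest for Areg and Btc.

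The ligands' make-up differed between the groups. Summed over the 7 ligands, the level was 37.3 ± 5.37 FPKM in KO_let-7g, 26.4 ± 1.56 FPKM in KO_siNr6a1, 40.1 ± 2.29 FPKM in KO_siCtrl and 21.0 ± 6.70 FPKM in WT_siCtrl (SD, n = 3 each), where WT_siCtrl replicate 0 had 28.8 FPKM and the others 17.5 and 16.9 FPKM. Of that sum, Hbegf made up 29.2% ± 1.55 in KO_let-7g, 34.1% ± 1.55 in KO_siNr6a1, 49.2% ± 2.16 in KO_siCtrl and 48.6% ± 8.59 in WT_siCtrl. Ereg made up 22.6% ± 0.556, 32.3% ± 2.33 and 29.8% ± 1.15 in the KO_let-7g, KO_siNr6a1 and KO_siCtrl groups, against 4.21% ± 0.532 in WT_siCtrl. So the ligand second in level in KO_siCtrl was a minor one in WT_siCtrl. Nrg1 made up 25.9% ± 2.38 in KO_let-7g and 22.1% ± 2.38 in KO_siNr6a1, against 8.82% ± 2.03 in KO_siCtrl, and 37.8% ± 5.94 in WT_siCtrl, the second-largest share there. Areg made up 15.6% ± 1.97 in KO_let-7g and 5.35% ± 0.808 in KO_siNr6a1, against 7.93% ± 0.430 in KO_siCtrl and 1.23% ± 0.213 in WT_siCtrl. The shares of a library sum to 100%, so a larger share of 1 ligand lowers the others, and with 3 libraries a group an exact permutation test of a share cannot go below p = 0.1.

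**Figure D3:**
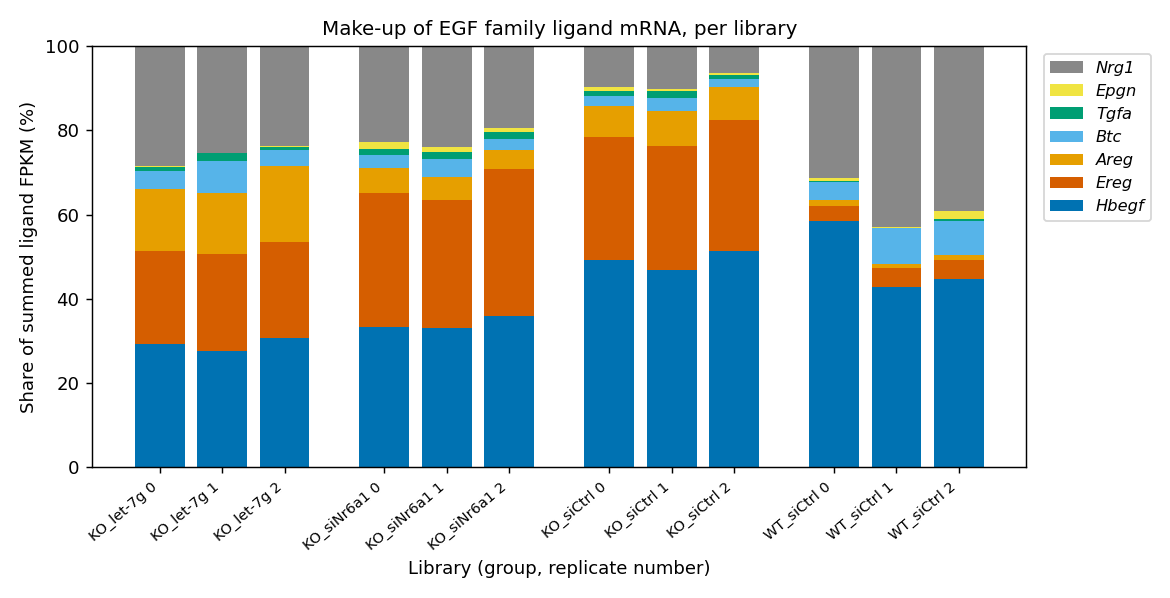
Share of the summed ligand FPKM (y axis, percent) taken by each of the 7 ligands in each of the 12 libraries (x axis, by group and replicate number). The Ereg band is 22.01% to 34.9% of each Dicer -/- library and 3.597% to 4.52% of each WT_siCtrl library.

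Among the receptors, Egfr was higher in all Dicer -/- groups than in WT_siCtrl. Egfr libraries had 13.6, 11.9 and 8.86 FPKM in KO_let-7g, 19.5, 16.6 and 15.1 FPKM in KO_siNr6a1 and 13.0, 14.2 and 10.2 FPKM in KO_siCtrl, against 4.10, 3.499 and 4.09 FPKM in WT_siCtrl. All 9 Dicer -/- libraries lay above the WT_siCtrl libraries, KO_siNr6a1 lay above the other 2 Dicer -/- groups, and those 2 overlapped. The log2 difference from WT_siCtrl was 1.33 in KO_let-7g, 1.88 in KO_siNr6a1 and 1.45 in KO_siCtrl (SE 0.16, limma adjusted p = 3.66e-05, 2.73e-06 and 2.06e-05). Mean levels in KO_siCtrl were 3.20 times those in WT_siCtrl. KO_let-7g minus KO_siCtrl was -0.12, with a 95% confidence interval of -0.47 to 0.23 (limma adjusted p = 0.573), for the transcript that carries the shorter let-7 match. Without KO_let-7g replicate 2 this difference was 0.038 (adjusted p = 0.868). KO_siNr6a1 minus KO_siCtrl was 0.43 (limma adjusted p = 0.0643, and 0.0162 with the replicate block), and its adjusted p was 0.0364 without KO_let-7g replicate 2 and 0.0470 under median-of-ratios scaling. KO_let-7g minus KO_siNr6a1 was -0.55 (limma adjusted p = 0.0175). That call was lost without KO_let-7g replicate 2 (-0.39, adjusted p = 0.0685) or KO_siNr6a1 replicate 0 (-0.45, adjusted p = 0.0690), and with library weights the difference was -0.34 (adjusted p = 0.0249). Egfr is on chromosome 11, 16752203 to 16918158 on the + strand, and its antisense gene Egfros overlaps it.

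Erbb2 was not called between the genotypes and moved in opposite directions under the treatments. Its levels were 9.95, 10.1 and 9.29 FPKM in KO_let-7g and 17.8, 17.5 and 17.2 FPKM in KO_siNr6a1. KO_siCtrl libraries had 13.9, 12.2 and 15.1 FPKM, and WT_siCtrl libraries had 12.01, 12.4 and 14.4 FPKM. KO_siNr6a1 lay above and KO_let-7g below the control-siRNA groups, which overlapped. KO_siCtrl minus WT_siCtrl was 0.08, with a 95% confidence interval of -0.13 to 0.29 (limma adjusted p = 0.508). Erbb2 fell by 0.45 in KO_let-7g against KO_siCtrl (SE 0.09, limma adjusted p = 0.00282) and rose by 0.33 in KO_siNr6a1 (adjusted p = 0.0222). The rise was not past the threshold when any one of 5 libraries was left out: KO_siNr6a1 replicates 0, 1 or 2 or KO_siCtrl replicates 0 or 1, with values of 0.25 to 0.34 and adjusted p from 0.0507 to 0.0845. KO_let-7g minus KO_siNr6a1 was -0.78 (limma adjusted p = 0.000124). Against WT_siCtrl, Erbb2 fell by 0.37 in KO_let-7g and rose by 0.41 in KO_siNr6a1 (limma adjusted p = 0.00632 and 0.00342). Erbb2, on chromosome 11, overlaps Mien1 on the other strand.

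Erbb3, which like Erbb4 binds Nrg1, was low in all libraries and highest in KO_let-7g. It stood at 1.35, 0.838 and 0.932 FPKM in KO_let-7g, 0.337, 0.195 and 0.154 FPKM in KO_siNr6a1 and 0.263, 0.348 and 0.179 FPKM in KO_siCtrl, against 0.0790, 0.0452 and 0.0695 FPKM in WT_siCtrl. KO_let-7g did not overlap the other groups, KO_siNr6a1 and KO_siCtrl overlapped, and WT_siCtrl was below both. The mean in KO_let-7g was 3.96 times that in KO_siCtrl, where a mean of 0.263 FPKM rests on few reads. With no filter, the log2 difference of KO_let-7g was 0.69 from KO_siCtrl, 0.73 from KO_siNr6a1 and 0.93 from WT_siCtrl (SE 0.09, limma adjusted p = 0.000487, 0.000535 and 4.18e-05). KO_siCtrl minus WT_siCtrl was 0.24 (adjusted p = 0.0655). The KO_let-7g libraries, in which Erbb3 was highest, also had the most Cd68, 5.81 ± 1.32 FPKM against 1.84 ± 0.453 FPKM in KO_siCtrl (SD, n = 3 each), and the part of other cell types in this result was not tested.

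**Figure D4:**
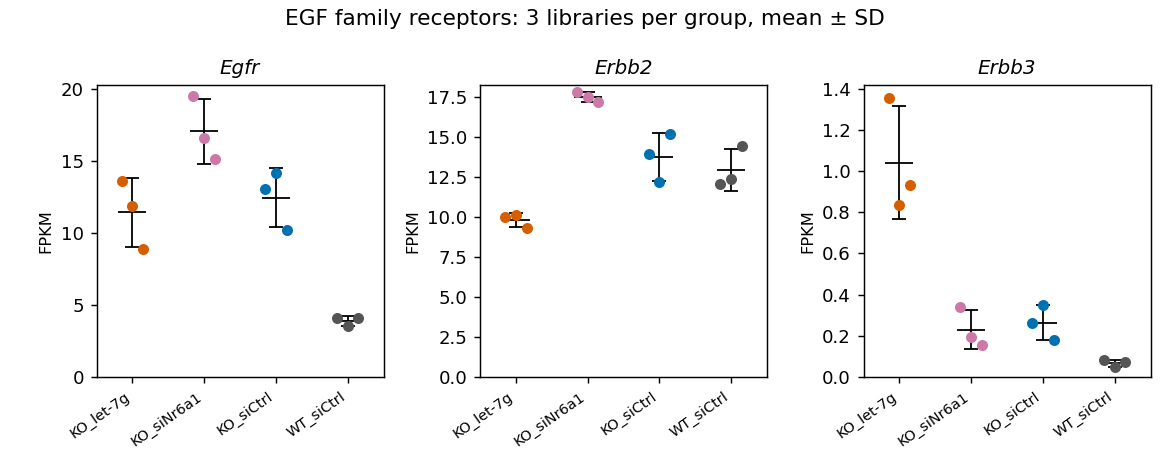
FPKM (y axis, linear from 0, a scale of its own per panel) of Egfr, Erbb2 and Erbb3 in the 4 groups (x axis), with 1 point per library and the mean ± SD. Egfr is lowest in WT_siCtrl, Erbb2 highest in KO_siNr6a1 and lowest in KO_let-7g, and Erbb3 highest in KO_let-7g.

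The remaining genes of the family were scarce. Egf, the founding ligand, averaged 0.460 ± 0.0903 FPKM in KO_let-7g, 0.188 ± 0.0501 in KO_siNr6a1, 0.252 ± 0.0440 in KO_siCtrl and 0.127 ± 0.0547 in WT_siCtrl (SD, n = 3 each). Nrg4 averaged 0.181 ± 0.0291, 0.278 ± 0.149, 0.472 ± 0.230 and 0.228 ± 0.0849 FPKM in these groups. Nrg2 was listed at 0 in the 3 KO_siCtrl libraries and at 0.0689 to 0.172 FPKM in WT_siCtrl. Erbb4 did not exceed 0.00780 FPKM and Nrg3 did not exceed 0.00506 FPKM in any library. Of the receptors, Egfr and Erbb2 thus had the most mRNA in every group, and Erbb4 was at or near 0.

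For the ligand and the receptor whose group means varied most on the log2(FPKM + 1) scale, Ereg and Egfr, the 5 tested genes with the most alike pattern over the 12 libraries were taken by Pearson correlation on that scale, as a description of libraries that share their groups. By ratio of mean FPKM, Areg (22.3 in KO_let-7g over WT_siCtrl) and Erbb3 (16.1) varied more. Their WT_siCtrl means, 0.264 and 0.0646 FPKM, rest on few reads. For Ereg the 5 genes were Arhgdib (r = 0.995), Elf3 (0.994), Gpr39 (0.991), Sim2 (0.991) and Rbm47 (0.990). Elf3 averaged 2.48 FPKM in KO_let-7g, 2.56 in KO_siNr6a1 and 3.71 in KO_siCtrl, and was listed at 0 in WT_siCtrl. For Egfr they were Heg1 (0.989), Gpr126 (0.986), Erlin2 (0.981), Ero1l (0.976) and Lbp (0.9753). Heg1 averaged 15.1 FPKM in KO_let-7g, 25.95 in KO_siNr6a1 and 16.5 in KO_siCtrl, against 3.97 in WT_siCtrl.

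The other genes of the EGF receptor pathway were taken from a list of 54, of which 53 were in the table and 48 were tested. In KO_siCtrl against WT_siCtrl 18 were higher and 8 lower, in all near the 54.3% of all tested genes called, 29.1% higher and 25.2% lower. In KO_let-7g against KO_siCtrl 9 were higher and 14 lower, in all near the 45.6% of all tested genes called, 27.5% higher and 18.2% lower. In KO_siNr6a1 against KO_siCtrl 8 were higher and 13 lower, and 29.4% of all tested genes were called, 13.2% higher and 16.3% lower. Without KO_siCtrl replicate 2 the last count was 13 in all. Median log2 fold changes of the list were 0.22, -0.05 and 0.01, beside 0.04, 0.08 and -0.06 over all tested genes.

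Adam17 is a sheddase of several of these ligands, and Rhbdf2 is a protein that carries it to the cell surface. Rhbdf2 was at 14.0 ± 2.16 FPKM in KO_siCtrl against 4.24 ± 1.04 in WT_siCtrl (log2 fold change 1.53, limma adjusted p = 7.29e-06), and Adam17 at 34.2 against 25.5 FPKM (0.41, adjusted p = 0.0138). Of the 4 genes of this role 2 were thus higher and 0 lower. Over all tested genes 54.3% were called in that comparison, 29.1% higher and 25.2% lower, so the count in either direction is near the background. Adam10 differed by -0.19 (limma adjusted p = 0.247) and Rhbdf1 by 0.01 (adjusted p = 0.947) there, and neither was called. Neither of the treatments had a call among the 4 genes of this role against KO_siCtrl.

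Of 9 genes that restrain the receptors, 3 were higher and 2 lower in KO_siCtrl against WT_siCtrl, a count near the 54.3% of all tested genes called. Lrig1, a membrane protein that promotes receptor breakdown, was at 18.2 ± 1.21 FPKM in KO_let-7g, 24.2 ± 1.48 in KO_siNr6a1 and 55.5 ± 4.82 in KO_siCtrl, against 10.2 ± 1.97 in WT_siCtrl (SD, n = 3 each). KO_siCtrl was thus highest, by 2.34 on the log2 scale over WT_siCtrl (limma adjusted p = 8.20e-08), and against KO_siCtrl Lrig1 fell by 1.56 in KO_let-7g and by 1.16 in KO_siNr6a1 (adjusted p = 5.95e-06 and 9.95e-05). Errfi1, an inhibitor of the receptor kinase, was at 55.5 ± 4.71 FPKM in KO_let-7g, 110.9 ± 4.94 in KO_siNr6a1 and 138.9 ± 2.48 in KO_siCtrl, against 77.1 ± 10.4 in WT_siCtrl. Against KO_siCtrl, Errfi1 fell by 1.31 in KO_let-7g (limma adjusted p = 3.48e-06) and by 0.32 in KO_siNr6a1 (adjusted p = 0.0255), and KO_let-7g minus KO_siNr6a1 was -0.99 (adjusted p = 3.37e-05). Cblb, a ubiquitin ligase, was lowest in KO_siCtrl, with 7.83 ± 0.477 FPKM in KO_let-7g, 7.22 ± 0.223 in KO_siNr6a1 and 3.48 ± 0.346 in KO_siCtrl, against 7.003 ± 0.553 in WT_siCtrl.

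Between receptor and Erk, 7 adaptors and 9 genes of the Ras to Erk cascade were tested. Shc1, an adaptor, fell by 0.93 and Ptpn11, a phosphatase that passes on the signal, by 0.70 in KO_siCtrl against WT_siCtrl (limma adjusted p = 8.93e-06 and 9.02e-05), and the Mek gene Map2k1 by 0.51 (adjusted p = 8.55e-05). In KO_let-7g against KO_siCtrl, Gab2, an adaptor, rose by 0.62, and Nras fell by 0.95 and Araf by 0.89 (adjusted p = 0.000285, 7.12e-05 and 0.000579). In KO_siNr6a1 against KO_siCtrl, Shc1 rose by 0.70 and Map2k1 fell by 0.30 (adjusted p = 0.000323 and 0.00671).

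Downstream, 8 feedback inhibitors of the Erk pathway were 5 higher and 0 lower in KO_siCtrl against WT_siCtrl, 2 higher and 3 lower in KO_let-7g against KO_siCtrl, and 1 higher and 4 lower in KO_siNr6a1 against KO_siCtrl. Over all tested genes 54.3%, 45.6% and 29.4% were called in these comparisons, so the first 2 counts are near the background in either direction. By direction, 29.1% of all tested genes were higher and 25.2% lower in the first comparison. These shares were 27.5% and 18.2% in the second and 13.2% and 16.3% in the third. Dusp5, an Erk phosphatase, was at 12.3 ± 1.78 FPKM in KO_let-7g, 21.1 ± 2.59 in KO_siNr6a1 and 34.7 ± 4.23 in KO_siCtrl, against 9.35 ± 1.41 in WT_siCtrl. Dusp6, another, fell by 0.89 in KO_let-7g and by 0.81 in KO_siNr6a1 against KO_siCtrl (limma adjusted p = 0.000246 and 0.00109). Spry4, a Sprouty inhibitor, fell by 0.67 in KO_siNr6a1 (adjusted p = 0.0055). Of 11 transcripts that Erk signalling is known to induce, 4 were higher and 1 lower in KO_siCtrl against WT_siCtrl, 1 higher and 2 lower in KO_let-7g, and 0 higher and 6 lower in KO_siNr6a1, both against KO_siCtrl. Read against the same 54.3% and 45.6% in either direction, the first 2 of these counts are at or under the background. Egr1, 1 of the 11, was at 118.7, 118.0, 89.5 and 64.5 FPKM in replicate 1 of KO_let-7g, KO_siNr6a1, KO_siCtrl and WT_siCtrl. Its other libraries lay between 17.6 and 30.9 FPKM, and Fos and Junb were also highest in replicate 1 of each group. The reported fit has no block for the number, so the SE of Egr1 was 0.78, and changes of such genes could go uncalled. Ccnd1, the cyclin D1 gene, averaged 67.4 ± 10.7 FPKM in KO_let-7g, 78.6 ± 17.6 in KO_siNr6a1 and 145.6 ± 22.8 in KO_siCtrl, against 30.6 ± 3.82 in WT_siCtrl. Etv4, a transcription factor gene, averaged 17.3 ± 3.16 FPKM in KO_siNr6a1 against 43.0 ± 13.2 in KO_siCtrl (-1.24, limma adjusted p = 0.0033). These roles hold few genes each and no list was tested as a set.

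**Figure D5:**
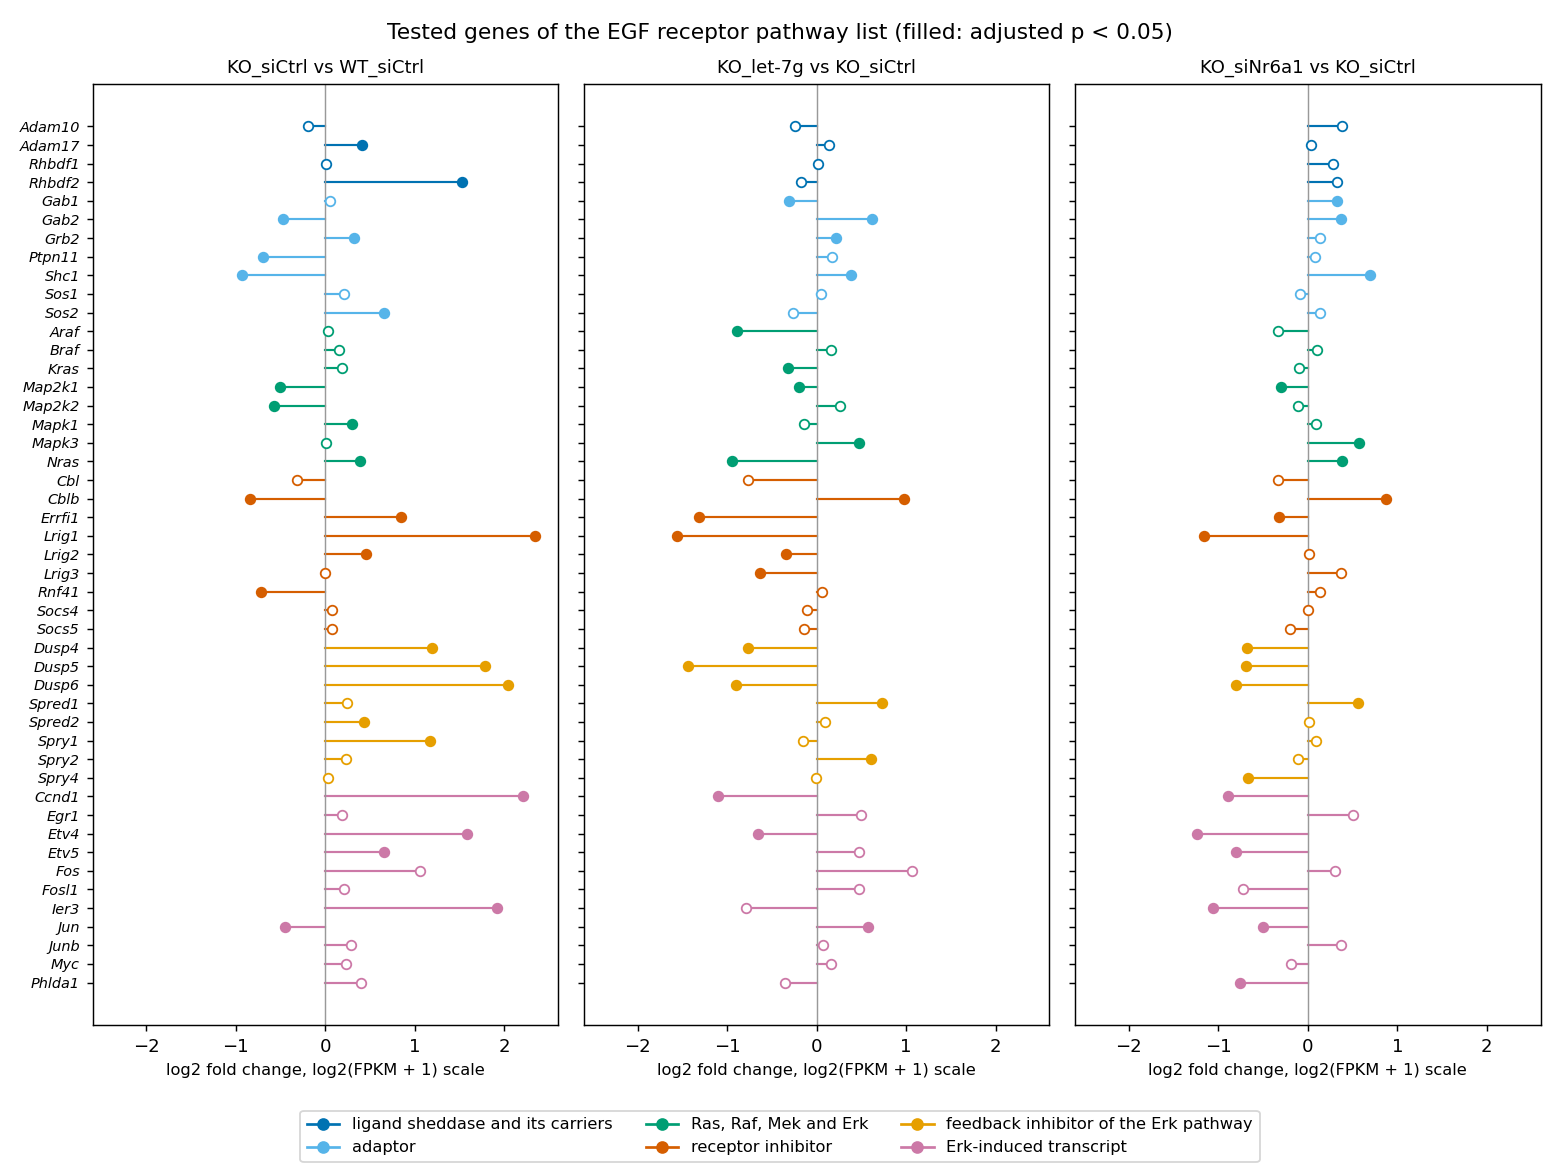
Log2 fold change on the log2(FPKM + 1) scale (x axis) of the tested pathway genes (rows, coloured by role, 1 of the 48 not drawn) in 3 comparisons (panels), with filled points for an adjusted p under 0.05. Lrig1, Dusp5, Dusp6 and Ccnd1 lie to the right of 0 in KO_siCtrl against WT_siCtrl and to the left in both treatments against KO_siCtrl.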

How the data were processed

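Polyadenylated RNA of 12 libraries in 4 groups of 3 was analysed. The authors deposited FPKM per gene in 1 table of 21881 genes. TopHat 1.2.0, Cufflinks 1.0.3 and the build mm9 were used, per the submitters' processing notes; settings and read counts are not given in the sources used here. Since each value is relative to all fragments of its library, changes in abundant genes move the others. Relative depth was read from the commonest ratio of 2 libraries among genes under 0.3 FPKM.

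Genes with at least 1 FPKM in at least 3 libraries (11801) were fitted as log2(FPKM + 1) with limma 3.58.1 in R 4.3.3, with 1 coefficient per group, 8 residual degrees of freedom and a variance trend, in 6 comparisons. P-values were Benjamini-Hochberg adjusted over all tested genes. The fit was tested on simulated data. Libraries that share a number deviated from their group means together, with correlations from 0.127 to 0.465 in 5 comparisons. In those, the numbers were taken to pair the libraries, on the evidence of these correlations and of no label, and the model was also run with a block for the number. No label says that the 3 libraries of a group are separate cultures. If they are not, p-values cover technical spread only.

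The members and lists were chosen with earlier results of these data known. Named pathway genes are those among the 10 with the smallest adjusted p in each of 3 comparisons and the other family genes. The remaining named pathway genes, Adam10, Adam17, Rhbdf1, Egr1, Fos and Junb, were chosen after their values were seen. A gene that the rule names and a marker, both in the counts, are not reported here. Markers, positions and sequences came from lists, GENCODE and RefSeq on GRCm38, while the values rest on mm9. Alternatives varied the pseudocount, filter, scaling, variance model, library weights, libraries fitted, block and each library left out.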

Additional observations from a re-analysis of the deposited data

How the results depend on the processing

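Over 23 other settings, 909 of 954 fold changes of the 42 tested member comparisons kept their direction and side of the threshold, 13 passed it newly, 23 lost it and 9 turned. Turned values were all of differences not past the threshold in the reported fit: Hbegf in KO_let-7g against WT_siCtrl at -0.00815 (median of ratios) and -0.062 and -0.055 (without WT_siCtrl replicate 1 or 2), Hbegf in KO_siNr6a1 against WT_siCtrl at 0.19 (library weights) and 0.23 (without WT_siCtrl replicate 0), Btc in KO_siNr6a1 against KO_siCtrl at 0.039 (without KO_siCtrl replicate 1), Ereg in KO_let-7g against KO_siNr6a1 at 0.075 and 0.056 (without KO_let-7g replicate 1 or KO_siNr6a1 replicate 2), and Egfr in KO_let-7g against KO_siCtrl at 0.038 (without KO_let-7g replicate 2). With 1 library left out these ranged from -0.062 to 0.48, from -0.31 to 0.23, from -0.16 to 0.039, from -0.10 to 0.075 and from -0.25 to 0.038. The cause was not tested.

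Members called in KO_let-7g against KO_siNr6a1 and in KO_siNr6a1 against WT_siCtrl were 3 each where a mean of at least 5 FPKM was asked, which leaves fewer members, against 5 each in the reported fit. With 1 library left out, members called in KO_siNr6a1 against KO_siCtrl ranged from 3 to 6, and pathway genes called from 13 to 23, against 5 and 21 with all libraries. All genes called there were 3474, and 5528 with library weights, 5248 with the replicate block and 2539 to 3789 with 1 library left out. In KO_siNr6a1 against WT_siCtrl the numbers pair the libraries less well (lowest correlation 0.0915), and the block gave Nrg1 an adjusted p of 0.0243. Beyond Btc, Egfr and Nrg1, as given above, the block changed no call of a member. Scaling by median of ratios moved the median of all genes to 0.00303 in KO_let-7g against KO_siNr6a1 and to -0.00751 in KO_let-7g against WT_siCtrl, against 0.12 in both as deposited. The share of called genes that were higher in KO_let-7g was then 48.5% against 67.6% (over KO_siNr6a1) and 47.9% against 60.7% (over WT_siCtrl), and over KO_siCtrl it was 49.9% under quantile scaling against 60.2%. The balance also turned in KO_siNr6a1 against KO_siCtrl (54.4% under median of ratios against 44.8%) and in KO_siCtrl against WT_siCtrl (46.4% under upper quartile scaling against 53.6%). Levels under 1 FPKM rest on few reads.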
